A study of Oreochromis niloticus with 6 samples.

Results

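Cytosolic ribosomal proteins are the protein parts of the ribosome that works in the cytoplasm, and the gills of Nile tilapia (Oreochromis niloticus) carried their transcripts at very high levels. The rows were chosen by name alone: a gene name that starts with rpl or rps followed by a digit, x or p, with rpsa included and the S6 kinases (rps6k) left out. The rule found 77 of the 40538 rows of the expression table, which hold 72 symbols, of which 45 rows belong to the large subunit, 28 to the small subunit and 4 to the ribosomal stalk. The 28 include rps19bp1, taken in by its name, which codes for a protein that binds a ribosomal protein and is not part of the ribosome. The rows covered 67 of 77 cytosolic ribosomal protein symbols of vertebrates; the others, rpl34, rpl35a, rpl37a, rpl39, rpl41, rps13, rps27 and rps28 among them, were not analysed here.

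RNA was sequenced from gills of GIFT, a farmed strain of Nile tilapia bred for growth, in 3 libraries labelled hypoxia stress and 3 labelled control. In the hypoxia tanks nitrogen brought the dissolved oxygen down to 1.02 mg/L (± 0.10) over the first 30 min, while control tanks stayed at 5 mg/L, and gills were taken at 96 h; both groups were the same strain, and no genotype, age or sex is given for them. The labels contradict each other on the layout, naming 3 tanks per group with 15 fish each in one text and 4 replicates per group with 30 fish per 500 L tank in another. How the libraries map to tanks or fish, and whether fish were pooled, is not stated, so a p-value below measures only the spread between these libraries, which may be technical.

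A ribosome is built from a small subunit, which reads the mRNA, and a large subunit, which joins the amino acids, with a protein stalk on the large subunit that draws in the elongation factors. Ribosomal proteins are made in matched amounts, and their mRNAs start with a run of pyrimidines, the terminal oligopyrimidine or TOP motif, through which the kinase complex mTORC1 and the RNA-binding protein LARP1 set how actively they are translated. In mammalian cells low oxygen is known to damp mTORC1, in part through DDIT4, so TOP mRNAs can be translated less while their RNA level stays the same. The values here are RNA levels, in FPKM (a read measure per transcript length and per mapped fragment of a library), and say nothing of translation.

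Depth is unknown for these libraries, and the summed FPKM per library ran from 466826 to 483691 in hypoxia and from 438405 to 455738 in control. egln3, an oxygen sensor gene that hypoxia-inducible factor is known to raise, had 3.25, 2.55 and 3.95 FPKM in the libraries labelled hypoxia, against 112, 50.4 and 46.4 FPKM in those labelled control (adjusted p = 0.00923). That goes against the direction the label would give for an ongoing response, and the groups are therefore named here only as labelled. Of 13 epithelial, 12 ionocyte and 11 endothelial or pillar cell rows, none was at 0 in every library. A value above 0 in any library is a bar that other tissues could also pass, so this cannot decide the gill label. Below 1 FPKM on average were 3 of the ionocyte rows, the cftr rows and an SLC12A2 row. Summed leukocyte markers were 2781, 3269 and 3060 FPKM in hypoxia against 1160, 1346 and 1299 FPKM in control (5 of 12 rows called higher). Most of that sum was 1 cd74b row, MSTRG.1327, at 2424, 2911 and 2709 against 965, 1170 and 1108 FPKM. The second cd74b row averaged 3.83 FPKM in hypoxia and 4.52 FPKM in control. Summed skeletal muscle markers were 911, 923 and 1106 against 454, 623 and 457 FPKM (5 of 12 higher). Summed cartilage markers were 107, 78.7 and 54.8 against 30.9, 38.6 and 33.0 FPKM (3 of 12 higher). Summed epithelial markers were 3417, 3794 and 2713 against 2704, 3161 and 2908 FPKM (0 of 13 higher, 1 lower, cldne at MSTRG.32269). Ionocyte markers summed to 267, 217 and 244 against 264, 261 and 263 FPKM. Endothelial or pillar cell markers summed to 113, 86.0 and 111 against 87.2, 86.5 and 96.7 FPKM. Erythrocyte markers summed to 131, 280 and 151 against 358, 56.4 and 60.1 FPKM. No ionocyte, endothelial or erythrocyte row was called. Of all tested rows 3.46% were called higher and 3.3% lower. Hemoglobin rows took 5.62, 13.1 and 7.07% of the summed FPKM in hypoxia and 9.11, 0.736 and 0.834% in control, so the groups overlapped, while single libraries stood apart. In a piece of tissue, fewer cells of a type and less RNA per cell cannot be told apart.

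Ribosomal protein transcripts were among the most abundant of the gill. The mean over the 6 libraries ranged from 0.209 to 3695 FPKM with a median of 1141 FPKM, 44 rows had at least 1000 FPKM and 70 at least 100 FPKM, and 56 of the 100 most abundant rows of the table were ribosomal proteins. rps27a, which codes for a small subunit protein made as a fusion with ubiquitin, had the highest level, at 4094, 3718 and 4384 FPKM in hypoxia against 3197, 3649 and 3125 FPKM in control. rps14, a small subunit protein whose loss underlies the anaemia of the human 5q deletion syndrome, followed with 3601, 3415 and 3939 FPKM in hypoxia and 3048, 2838 and 3204 FPKM in control. For both rows every library labelled hypoxia lay above every library labelled control, with log2 changes of 0.29 ± 0.11 and 0.27 ± 0.10 (SE, adjusted p = 0.182 and 0.176). After quantile normalization the changes had the other sign, at -0.48 and -0.41 (adjusted p = 0.292 and 0.425). The other 8 of the 10 most abundant rows were rpl7a, rpl8, rpl27, rpl23a, rps2, rpl6, rpl3 and rpl7, with means from 2657 down to 2104 FPKM. The groups overlapped in all 8. At the low end, rps19bp1 had 7.56 FPKM, RPL3L 2.02 FPKM, one of the rpl24 rows 1.121 FPKM and the second RPS19 row 0.209 FPKM on average.

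Whether the ribosomal protein RNAs differed between the gills labelled hypoxia and control was asked row by row, in one fit over the whole table. No ribosomal protein row passed an adjusted p of 0.05 in either direction. Of the 77 rows 76 could be tested (those averaging 1 FPKM or more); RPS19 (ENSONIG00000019765) fell below that. In the same fit 6.77% of all 25111 tested rows were called, 3.46% higher and 3.3% lower, so 0 of 76 ribosomal protein rows stands below the share of the table. At an unadjusted p under 0.05, 17 of the 76 were higher and 1 lower, beside 14.2% and 11.2% of all tested rows. The 3 hypoxia libraries all lay above the 3 control libraries in 21 rows (27.6%) and all below in 1, beside 19.1% and 14% of all rows.

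The individual shifts were small and nearly all in one direction. The log2 change (hypoxia minus control, of log2(FPKM + 1)) was above 0 in 73 of 76 rows, or 96.1%, beside 54.3% of all tested rows. Its median was 0.18, with the middle of the rows between 0.13 and 0.27, beside a median of 0.05 over all tested rows. Among the 369 other rows of at least 100 FPKM, the median was -0.08, with 22 called higher and 56 lower. The rows move together across libraries and share each library's scaling, so their count of like signs is a description and not a number of independent results. It also depended on that scaling. With each library scaled to the same summed FPKM (the TPM scale) 60 of 76 rows stayed above 0 (47% of all rows), the median was 0.08 beside -0.03 over all rows, and 7 rows (9.21%) had hypoxia libraries all above control, beside 14.5% of all rows. After quantile normalization, 41 of 76 were above 0 (50.3% of all rows) the median was 0.03, and 3 rows, rpl23, rpl10 and rpl22 at MSTRG.21472, were called higher (3.42% of all rows).

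**Figure D1:**
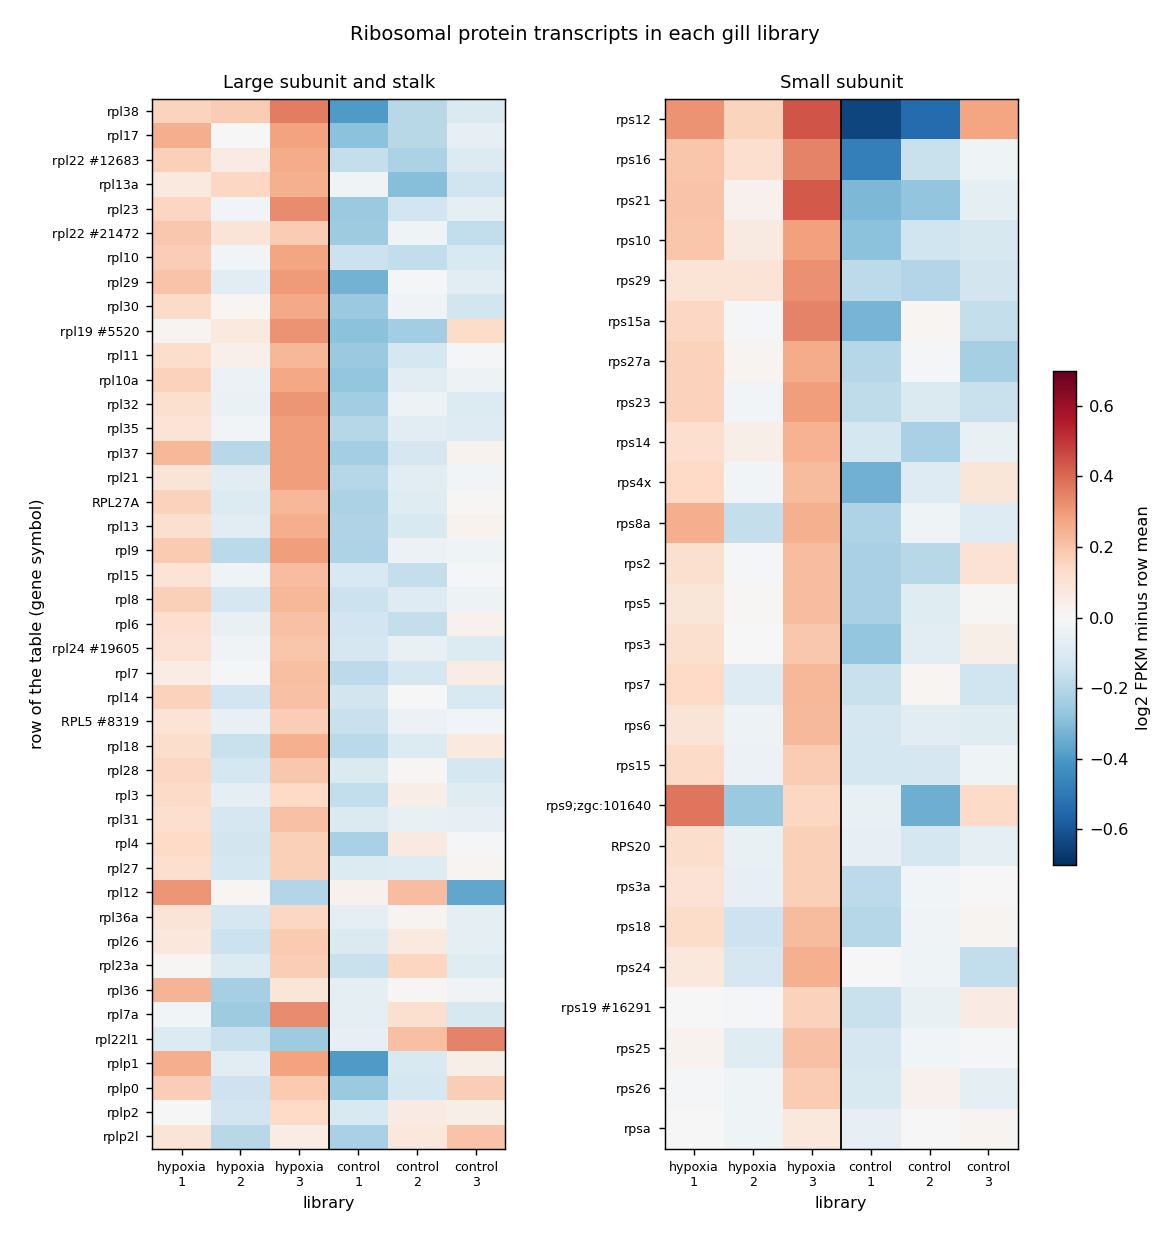
Each line is a ribosomal protein row, 69 of the 70 that averaged 100 FPKM or more, and each column one library, hypoxia left of the black line and control right of it. Colour shows the log2 FPKM minus the mean of the row, red for higher and blue for lower; names with # are followed by the locus number where a symbol has more than 1 row. Hypoxia 3 is the reddest column and control 1 the bluest, while rpl22l1 runs the other way.

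The large subunit proteins lie around the peptidyl transferase centre and the exit tunnel. Of their 45 rows 43 had a log2 change above 0, beside 54.3% of all tested rows, and the median was 0.18. At an unadjusted limma p under 0.05, 10 were higher and 1 lower, beside 14.2% and 11.2% of all tested rows. rpl38 (MSTRG.20207), a surface protein that in mice is needed for translation of certain Hox mRNAs, came nearest to a call. It had 1277, 1299 and 1474 FPKM in hypoxia against 873, 1004 and 1070 FPKM in control. All 3 hypoxia libraries lay above all 3 control libraries, with a log2 change of 0.46 ± 0.12 (SE) and an adjusted p of 0.0747. Over 18 other settings its adjusted p ranged from 0.0445 to 0.290, and it passed 0.05 in 2 of them, with a minimum mean of 5 FPKM (6.84% of all rows called higher) and with hemoglobin rows left out.

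rpl17, which lies at the exit of the peptide tunnel, had 1251, 1046 and 1272 FPKM in hypoxia against 857, 916 and 1006 FPKM in control (log2 change 0.36 ± 0.12, adjusted p = 0.134). rpl13a, which in human cells leaves the ribosome on interferon gamma treatment to silence inflammatory mRNAs, had 686, 726 and 778 FPKM in hypoxia and 644, 533 and 595 FPKM in control (0.31 ± 0.11, adjusted p = 0.1499). rpl10, one of the last proteins to join the large subunit, had 309, 271 and 332 FPKM in hypoxia and 247, 243 and 255 FPKM in control (0.29 ± 0.10, adjusted p = 0.160). The groups did not overlap in any of these 3 rows, and none passed the test. rpl11, which with rpl5 and the 5S RNA binds MDM2 and so links ribosome assembly to p53 in mammals, had 492, 463 and 530 FPKM in hypoxia against 378, 415 and 447 FPKM in control (0.26 ± 0.11, adjusted p = 0.191).

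Several of the most abundant large subunit rows moved less. rpl7a, an early assembly protein, had 2602, 2215 and 3311 FPKM in hypoxia against 2527, 2853 and 2436 FPKM in control, so the single highest and the single lowest value both came from hypoxia (log2 change 0.04 ± 0.17, adjusted p = 0.909). rpl23a, the docking site of the signal recognition particle at the tunnel exit, had 2303, 2144 and 2573 FPKM in hypoxia and 2053, 2539 and 2160 FPKM in control (0.06 ± 0.13, adjusted p = 0.810). rpl3, which reaches into the catalytic centre, had a log2 change of 0.14 ± 0.11 (adjusted p = 0.462). In all 3 rows the groups overlapped.

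The small subunit proteins line the mRNA channel and the decoding site. All 27 tested rows, rps19bp1 counted among them, had a log2 change above 0, beside 54.3% of all tested rows, with a median of 0.20. At an unadjusted limma p under 0.05, 7 were higher and 0 lower, beside 14.2% and 11.2% of all tested rows. rps10, which sits by the mRNA entry and is marked with ubiquitin when ribosomes collide, had 2170, 1982 and 2319 FPKM in hypoxia against 1559, 1722 and 1757 FPKM in control (log2 change 0.36 ± 0.10, adjusted p = 0.0986). With hemoglobin rows left out its adjusted p was 0.0441, and the range over 18 settings was 0.0441 to 0.511. rps29, a small zinc-binding protein, had 1611, 1613 and 1884 FPKM in hypoxia and 1327, 1307 and 1380 FPKM in control (0.34 ± 0.10, adjusted p = 0.101). Every hypoxia library was above every control library in both rows.

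rps16, whose tail reaches the tRNA in the peptidyl site, had 2209, 2095 and 2458 FPKM in hypoxia against 1386, 1730 and 1893 FPKM in control (log2 change 0.44 ± 0.15, adjusted p = 0.129). rps21 had 1060, 942 and 1245 FPKM in hypoxia against 744, 764 and 883 FPKM in control (0.44 ± 0.14, adjusted p = 0.117). rps12 showed the widest shift of all tested rows of the family and also one of the widest spreads. It had 1353, 1210 and 1474 FPKM in hypoxia and 697, 750 and 1317 FPKM in control, so control 3 lay within the hypoxia range while control 1 and 2 lay far below it (0.60 ± 0.26, adjusted p = 0.212). In Drosophila rps12 is known for its role in cell competition. rps6, the protein that S6 kinases phosphorylate downstream of mTORC1, had 643, 591 and 708 FPKM in hypoxia and 558, 575 and 571 FPKM in control (0.19 ± 0.10, adjusted p = 0.298). rpsa, also described as a precursor of the laminin receptor, was nearly level at 1653, 1624 and 1749 FPKM in hypoxia and 1592, 1658 and 1679 FPKM in control (0.03 ± 0.09, adjusted p = 0.871).

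The stalk consists of rplp0, which anchors it, and the acidic proteins rplp1 and rplp2. rplp0 had 1568, 1257 and 1576 FPKM in hypoxia against 1161, 1277 and 1567 FPKM in control (log2 change 0.14 ± 0.16, adjusted p = 0.620). rplp1 had 807, 643 and 821 FPKM in hypoxia against 514, 627 and 696 FPKM in control (0.31 ± 0.16, adjusted p = 0.285). rplp2 had 1103, 1008 and 1219 FPKM in hypoxia against 1029, 1152 and 1136 FPKM in control (0.00 ± 0.11, adjusted p = 0.989). The groups overlapped in all 3 rows, and the 95% interval of the rplp2 change ran from -0.26 to 0.27.

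**Figure D2:**
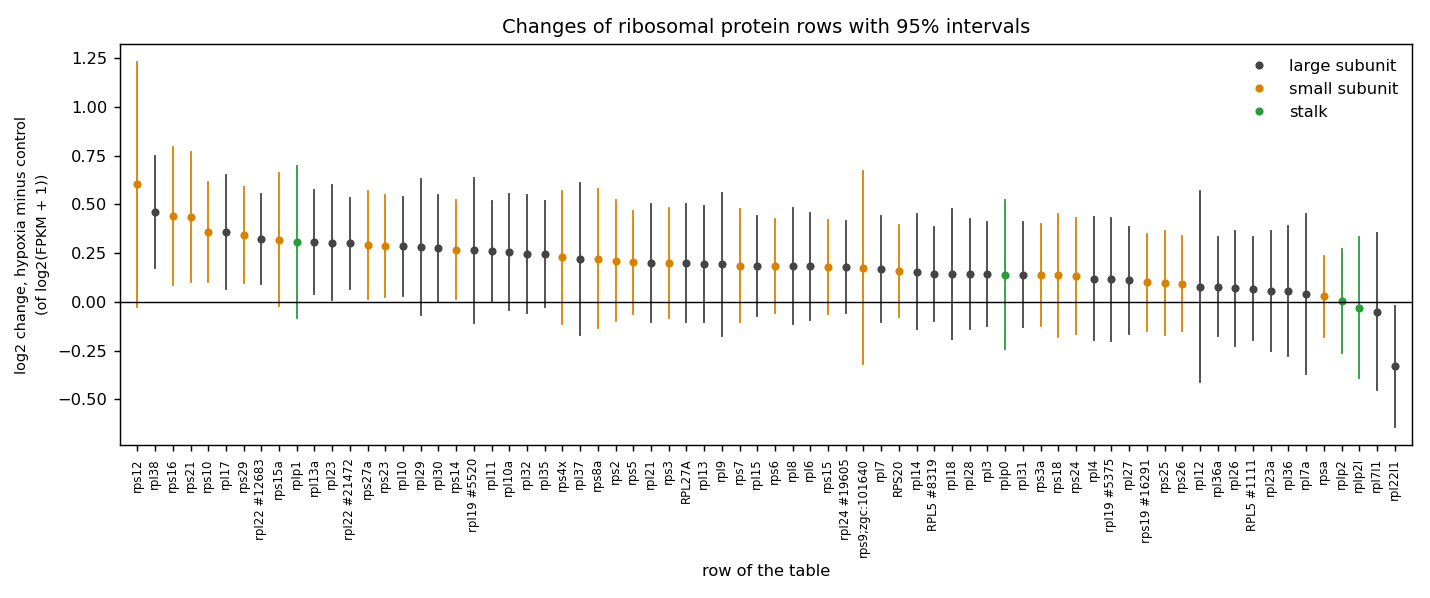
Points are log2 changes (hypoxia minus control, of log2(FPKM + 1)) of 72 of the 73 tested ribosomal protein rows that averaged 10 FPKM or more, ordered by size, and lines are their unadjusted 95% intervals from limma; colour marks the subunit. Most points lie between 0 and 0.5, most intervals cross 0, rps12 is highest at 0.60 and rpl22l1 lowest at -0.33.

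The intervals show what sizes the spread between libraries leaves for the changes on the FPKM scale as deposited. They do not cover the choice of scaling. For rps27a and rps14 the intervals ran from 0.01 to 0.57 and from 0.02 to 0.52. After quantile normalization, where 41 of 76 rows were above 0, the changes of rps27a and rps14 were -0.48 and -0.41. Over the 76 rows the unadjusted 95% interval reached a median of 0.29 to each side of the estimate, at least 0.21 and at most 2.02. The interval lay above 0 in 17 rows and below 0 in 1, beside 14.2% and 11.2% of all tested rows. These are the rows with an unadjusted limma p under 0.05, counted again. The upper bound of the interval was below a log2 change of 1 in 74 rows, a count whose share over all tested rows was not computed. The exceptions were rps12, with an upper bound of 1.23, and the low rpl24 row (MSTRG.19606).

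Some ribosomal proteins have more than 1 row or a close relative in the table, and since assembled loci can split a gene and near-identical copies can share reads, their values are less certain. rpl22, an RNA-binding protein of the large subunit, has 2 rows. MSTRG.12683 had 769, 712 and 820 FPKM in hypoxia against 609, 587 and 640 FPKM in control (log2 change 0.32 ± 0.09, adjusted p = 0.101), and MSTRG.21472 had 206, 193 and 205 FPKM in hypoxia against 152, 177 and 161 FPKM in control (0.30 ± 0.10, adjusted p = 0.119). Their relative rpl22l1, which in mice can take the place of Rpl22 in the ribosome, was the one row that went the other way with separated groups. It had 96.0, 91.9 and 86.1 FPKM in hypoxia against 98.6, 118 and 130 FPKM in control (-0.33 ± 0.13, adjusted p = 0.177).

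Relative to the 2 rpl22 rows summed, rpl22l1 amounted to 9.84, 10.15 and 8.40% in hypoxia and 12.9, 15.5 and 16.3% in control. This ratio does not depend on the scaling of a library, and the groups did not overlap. An exact two-sided permutation test gave p = 0.1, which is the smallest value that 3 libraries against 3 can give, and the pair was chosen with these values known. When every library was scaled to the same sum of ribosomal protein FPKM, an alternative chosen after seeing the data, rpl22l1 had the smallest adjusted p of the family, 0.0707 with a log2 change of -0.53; over all 18 alternatives it ranged from 0.0707 to 0.455.

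The stalk pair rplp2 and rplp2l showed no such difference. rplp2l had 908, 744 and 883 FPKM in hypoxia and 726, 894 and 977 FPKM in control (log2 change -0.03 ± 0.15, adjusted p = 0.924). Its ratio to rplp2 was 0.762 ± 0.053 in hypoxia and 0.781 ± 0.077 in control (SD, n = 3 each), with overlapping groups (exact two-sided permutation p = 0.7).

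**Figure D3:**
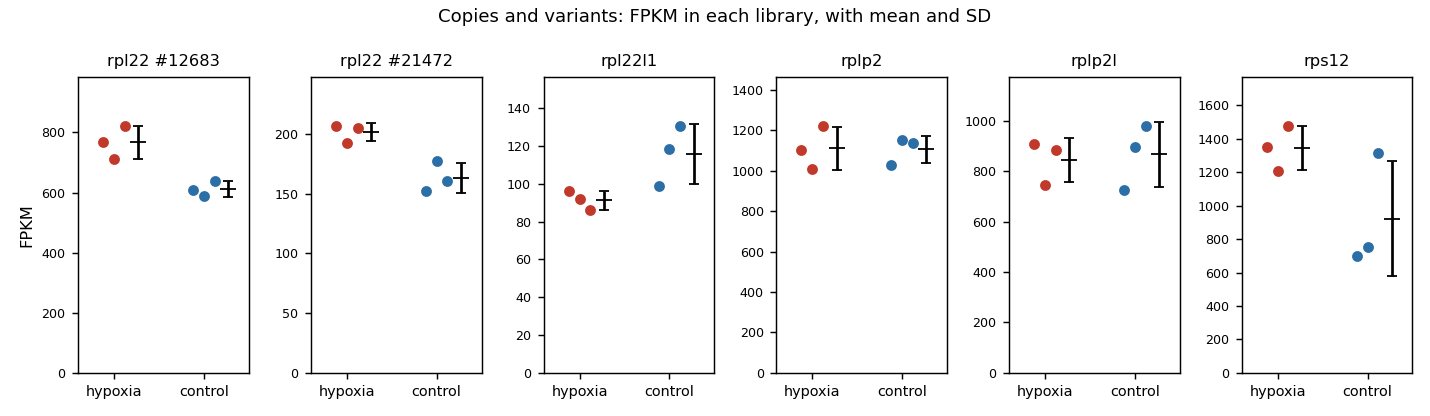
Red points are hypoxia libraries and blue points control libraries, in FPKM on an axis from 0, and the black bars give the mean and SD of 3 libraries. Both rpl22 rows have hypoxia libraries above all control libraries, rpl22l1 has them below, rplp2 and rplp2l overlap, and for rps12 control 3 lies apart from the other control libraries.

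RPL3L (MSTRG.25024), a relative of rpl3 that in mammals replaces it in striated muscle, was expressed at a very low level. It had 2.15, 2.36 and 3.06 FPKM in hypoxia against 1.82, 1.30 and 1.42 FPKM in control (log2 change 0.48 ± 0.18, adjusted p = 0.163), on a scale that understates changes of low rows. The groups did not overlap, and the summed muscle markers given above, a list that counts RPL3L as 1 of its 12 tested rows, were also higher in every hypoxia library; their part in this value was not tested. rpl7l1, a relative of rpl7, had 15.2, 13.4 and 15.7 FPKM in hypoxia and 12.1, 17.1 and 17.4 FPKM in control (-0.05 ± 0.17, adjusted p = 0.883).

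Of the other repeated symbols, 1 row carried most of the signal. rpl19 had 2139 ± 240 FPKM in hypoxia and 1789 ± 295 FPKM in control at MSTRG.5520, and 54.0 ± 5.23 FPKM in hypoxia and 49.8 ± 5.99 FPKM in control at MSTRG.5375 (SD, n = 3 each). RPL5 had 332 ± 25.9 FPKM in hypoxia and 300 ± 15.4 FPKM in control at MSTRG.8319, and 70.9 ± 4.31 FPKM in hypoxia and 67.7 ± 6.11 FPKM in control at MSTRG.1111. rps19 had 981 ± 64.9 FPKM in hypoxia and 915 ± 66.8 FPKM in control at MSTRG.16291. The adjusted p of these 5 rows ran from 0.332 to 0.732, and the groups overlapped in each. rpl24 had 1688, 1545 and 1803 FPKM in hypoxia and 1451, 1517 and 1472 FPKM in control at MSTRG.19605 (log2 change 0.18 ± 0.10, adjusted p = 0.300). The neighbouring locus number, MSTRG.19606, was listed at 0 in 1 hypoxia and 2 control libraries and reached 3.64 FPKM in hypoxia 3 and 2.97 FPKM in control 1. rps4x, which in mammals lies on the X chromosome, had a log2 change of 0.23 ± 0.14 (adjusted p = 0.356).

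The family followed one order of libraries. Of the 76 tested rows, 67 were highest among the hypoxia libraries in hypoxia 3 and 66 lowest in hypoxia 2, while 56 were lowest among the control libraries in control 1 and 43 highest in control 3. Within each group the library with the fewest ribosomal protein transcripts was thus the one with the most hemoglobin, 13.1% in hypoxia 2 and 9.11% in control 1. With hemoglobin left out of the total, hypoxia 2 (21.5%) and control 1 (19.8%) still had the lowest ribosomal protein shares of their groups. A part of hemoglobin in this order was not tested. In an alternative chosen after seeing the data, with hemoglobin rows left out and the libraries rescaled, the median log2 change was 0.16, 29 rows had hypoxia libraries all above control (38.2%, beside 17.9% of all rows), and 2 rows, rpl38 and rps10, were called higher (3.45% of all rows).

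Single libraries decided how many rows stood out. Without hypoxia 2, 32 of 76 rows were higher at an unadjusted p under 0.05 (14.6% of all rows), and without hypoxia 3, 4 of 75 (10.5% of all rows). Leaving out hypoxia 1, control 1, control 2 or control 3 gave 7, 8, 7 and 10 rows, beside 10.4, 12.9, 12 and 11.6% of all rows. In each of these 6 fits 0 ribosomal protein rows passed an adjusted p of 0.05, and the median stayed between 0.12 and 0.26. The whole table also lost calls. Rows called higher fell from 870 to 106, 150, 165 and 257 without hypoxia 1, hypoxia 3, control 2 and control 3. Rows called lower fell from 829 to 154, 172, 190 and 260. Without control 1 the counts were 427 and 595, and without hypoxia 2 they were 818 and 809. The 0 in these fits is therefore no separate result about the family.

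Summed over the family, ribosomal proteins took 101344, 90048 and 108816 FPKM in hypoxia against 81882, 88776 and 90519 FPKM in control, a ratio of the means of 1.15. Hypoxia 2 lay below control 3, so the groups overlapped. As a share of all FPKM the rows took 21.7, 18.7 and 22.5% in hypoxia and 18.0, 20.2 and 20.6% in control, which also overlapped, with means of 21.0 ± 2.00% in hypoxia and 19.6 ± 1.44% in control (SD, n = 3 each). With hemoglobin left out of the total, the shares were 23.0, 21.5 and 24.2% in hypoxia and 19.8, 20.4 and 20.8% in control, and did not overlap. The large subunit rows summed to 1.22, 1.18 and 1.21 times the small subunit rows in hypoxia and 1.27, 1.28 and 1.23 times in control. The hypoxia values of this ratio all lay below the control values, with 1.22 and 1.23 as the nearest pair.

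The family varied little within a group. For the 70 rows of at least 100 FPKM the median within-group coefficient of variation was 9.17%, beside 12.9% for the 369 other rows at that level. Scaled to the same sum of ribosomal protein FPKM, the median was 4.74%. On that scale, which takes out what the rows share by construction, 34 of 76 rows were above 0 (40.4% of all rows), 4 were higher and 2 lower at an unadjusted p under 0.05 (24.6% of all rows in either direction), and 0 were called (6.87% of all rows). The rows higher there were rpl38 (0.26), rps21 (0.24), rps16 (0.24) and rps10 (0.16), and those lower were rpl22l1 (-0.53) and rplp2 (-0.19). That scaling moved the median of all tested rows from 0.05 to -0.11.

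**Figure D4:**
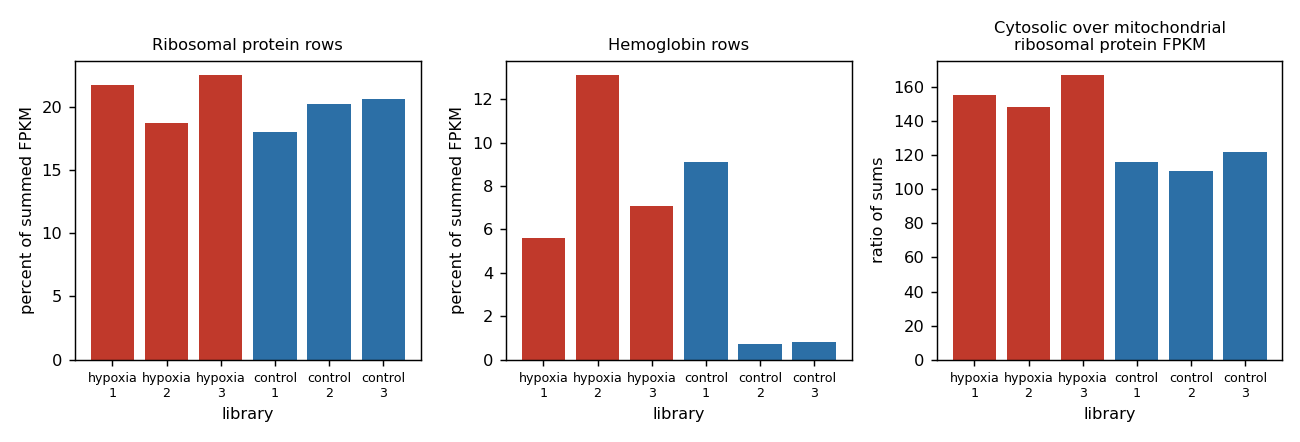
Bars from 0 give, for each library, the percent of summed FPKM in ribosomal protein rows, the percent in hemoglobin rows, and the summed cytosolic over mitochondrial ribosomal protein FPKM; hypoxia is red and control blue. Ribosomal protein shares overlap between the groups, hypoxia 2 and control 1 have the tallest hemoglobin bars of their groups, and the ratio is 148 to 167 in hypoxia and 111 to 122 in control.

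Mitochondrial ribosomal proteins, which build the separate ribosome that translates mitochondrial DNA, gave a comparison within the same libraries. Of 67 tested rows 0 were called higher and 2 lower (3.3% of all rows lower), 9 had a log2 change above 0, and the median was -0.17. mrpl40 was lower, at 16.3, 14.4 and 15.7 FPKM in hypoxia against 21.9, 23.8 and 22.6 FPKM in control (log2 change -0.53 ± 0.10, adjusted p = 0.0355). The other called row was the smaller of the 2 mrpl2 rows, MSTRG.4590, listed at 0 in all 3 hypoxia libraries and at 2.62, 5.89 and 2.69 FPKM in control. The larger mrpl2 row, MSTRG.4591, had 19.4, 21.2 and 18.4 FPKM in hypoxia and 19.2, 21.1 and 21.3 FPKM in control, with overlapping groups (log2 change -0.06 ± 0.10, adjusted p = 0.746). The count of mitochondrial rows called lower was 0 without hypoxia 1, hypoxia 3, control 2 or control 3, 1 without hypoxia 2, and 0 to 6 under the alternatives that kept all libraries. Over all tested rows, 154, 172, 190 and 260 were called lower without hypoxia 1, hypoxia 3, control 2 and control 3. That number was 809 without hypoxia 2 and 829 in the fit as reported. The 6 came from scaling to the ribosomal protein sum, where 1226 rows of the table were called lower. The 0 came from the replicate block, where 2 were. A sum of their rows came to 637 ± 25.5 FPKM in hypoxia and 750 ± 48.1 FPKM in control (SD, n = 3 each). The cytosolic sum was therefore 155, 148 and 167 times the mitochondrial sum in hypoxia and 116, 111 and 122 times in control. The groups did not overlap, and as both sums come from the same library this ratio does not depend on its scaling; with 3 against 3 libraries no exact test can go below p = 0.1.

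Ribosomal proteins that the name rule did not catch had values in the same range. faua, a small subunit protein made as a fusion with a ubiquitin-like protein, had 1290, 1160 and 1295 FPKM in hypoxia against 1086, 1099 and 1089 FPKM in control (log2 change 0.19 ± 0.09, adjusted p = 0.241). gnb2l1, the scaffold RACK1 on the small subunit, had 892, 764 and 908 FPKM in hypoxia and 698, 771 and 835 FPKM in control (0.15 ± 0.12, adjusted p = 0.455). The groups were separate for faua and overlapped for gnb2l1. rsl24d1, a factor of large subunit assembly that the table's KEGG annotation files with the ribosome, had 151, 112 and 132 FPKM in hypoxia and 154, 178 and 147 FPKM in control (-0.28 ± 0.14, adjusted p = 0.278).

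**Figure D5:**
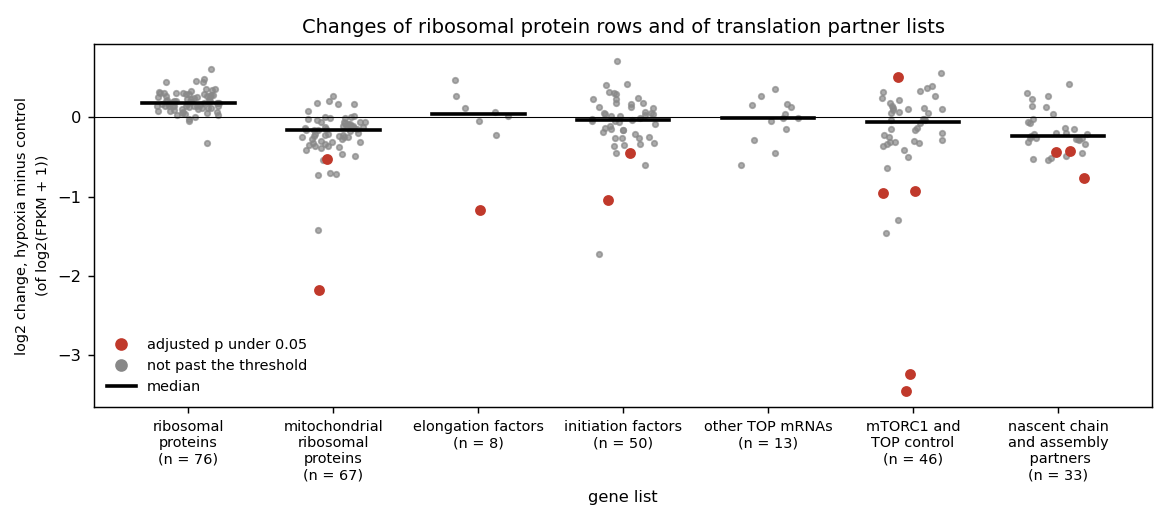
Points are log2 changes (hypoxia minus control, of log2(FPKM + 1)) of the tested rows of each list, red where the adjusted p was under 0.05, and black lines are medians; the mrpl2 row drawn below -2 is MSTRG.4590, listed at 0 in hypoxia, and its position depends on the pseudocount. Ribosomal proteins centre at 0.18 with no red point, mitochondrial ribosomal proteins at -0.17, and the lowest red points are the 2 ddit4 rows.

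The lists of other genes that surround translation had medians near or below 0. These lists were drawn up with earlier results of these data known. Of the 145 tested rows in these lists (each row counted once, the mitochondrial list not included), 1 was higher and 10 were lower, beside 3.46% and 3.3% of all tested rows, and the median was -0.06. Among the 8 tested rows of the list of elongation factors and related genes 0 were higher and 1 lower, with a median of 0.04. The one was eef2k, the kinase that blocks elongation factor 2, at 21.99, 19.4 and 16.6 FPKM in hypoxia against 53.6, 43.3 and 37.8 FPKM in control (log2 change -1.17 ± 0.17, adjusted p = 0.0207), a call that held in 14 of 18 other settings.

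Among 50 initiation factor rows 0 were higher and 2 lower, beside 3.46% and 3.3% of all tested rows, with a median of -0.03. eif4g2a, a relative of the scaffold eIF4G that lacks the cap-binding part, had 40.8, 39.3 and 41.0 FPKM in hypoxia against 70.4, 89.7 and 95.5 FPKM in control (log2 change -1.05 ± 0.13, adjusted p = 0.0159). The row named eif4g2b (MSTRG.14549) had a log2 change of 0.12 and did not pass. eif1b, a relative of the start codon selection factor eIF1, had 207, 206 and 213 FPKM in hypoxia against 312, 279 and 268 FPKM in control (-0.45 ± 0.09, adjusted p = 0.0462). The eif4g2a call held in 14 of 18 other settings and that of eif1b in 9. Over all 18 the adjusted p of eif1b reached 0.235. Another list holds 13 rows whose mRNAs are known to be of the TOP class in mammals, such as tpt1, pabpc1a, npm1a and btf3. Of these, 0 were called in either direction, beside 6.77% of all tested rows. Above 0 were 6 of them (54.3% of all tested rows), and the median was -0.01.

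The list of mTORC1 and TOP control had 46 tested rows. Of these 1 was higher and 4 were lower, beside 3.46% and 3.3% of all tested rows. The other 41 rows did not pass, among them eif4ebp1, tsc1a, sesn2 and deptor, which are also known to restrain mTORC1 signalling or cap-dependent initiation. ddit4, which holds mTORC1 back in stressed cells, was lower in both of its rows, at 1.16, 1.08 and 0.876 FPKM in hypoxia against 30.0, 12.6 and 15.7 FPKM in control for MSTRG.18305 (log2 change -3.23 ± 0.31, adjusted p = 0.0104). The second, DDIT4 at MSTRG.5326, had 1.23, 7.05 and 2.14 FPKM in hypoxia against 70.3, 21.8 and 44.0 FPKM in control (-3.45 ± 0.60, adjusted p = 0.0309). Like egln3, both rows ran against the direction that the hypoxia label would give for an ongoing response. What this means for mTORC1 activity was not tested. eif4ebp3, which keeps the cap-binding factor eIF4E from its scaffold, had 13.6, 12.7 and 13.3 FPKM in hypoxia against 34.2, 23.2 and 21.99 FPKM in control (-0.93 ± 0.18, adjusted p = 0.0400). Of 18 other settings the call held in 17 for ddit4 at MSTRG.18305, in 11 for MSTRG.5326 and in 11 for eif4ebp3.

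larp6, a relative of LARP1 that binds collagen mRNAs in mammals, had 2.42, 3.02 and 1.66 FPKM in hypoxia against 5.48, 4.79 and 6.04 FPKM in control (log2 change -0.95 ± 0.19, adjusted p = 0.0415), and passed in 10 of the 17 other settings that tested it. depdc5, part of the GATOR1 complex that inhibits mTORC1 when amino acids are short, was the row called higher, at 12.2, 11.8 and 13.7 FPKM in hypoxia against 8.89, 8.12 and 8.62 FPKM in control (0.50 ± 0.11, adjusted p = 0.0493). It passed in 4 of 18 other settings, and over all 18 its adjusted p ranged from 0.0253 to 0.174.

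The nascent chain and assembly partners meet the peptide as it leaves the ribosome or help to build the subunits. Of 33 rows 0 were higher and 3 were lower, beside 3.46% and 3.3% of all tested rows. A change above 0 was seen in 7 of the 33 (54.3% of all tested rows), with a median of -0.24. sec61a1 (MSTRG.6391), the pore through which new peptides enter the endoplasmic reticulum, had 59.5, 61.5 and 59.9 FPKM in hypoxia against 87.7, 105 and 119 FPKM in control (log2 change -0.77 ± 0.13, adjusted p = 0.0285). srp14 and srp72 (MSTRG.7284), parts of the signal recognition particle, averaged 14.2 ± 0.364 and 18.96 ± 0.956 FPKM in hypoxia against 19.6 ± 0.414 and 25.8 ± 0.620 FPKM in control (SD, n = 3 each), with an adjusted p of 0.0432 and 0.04999. Each library labelled hypoxia was below each labelled control in these 3 rows, and the calls held in 12, 10 and 9 of 18 other settings for sec61a1, srp14 and srp72. The same symbols have further rows that did not pass. srp72 at MSTRG.7282 had 1.56, 1.90 and 1.32 FPKM in hypoxia against 1.38, 1.04 and 0.472 FPKM in control (log2 change 0.42 ± 0.25, adjusted p = 0.353). SEC61A1 at MSTRG.4759 had 23.9, 25.6 and 23.5 FPKM in hypoxia against 24.5, 32.4 and 35.3 FPKM in control (-0.31 ± 0.15, adjusted p = 0.264).

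Outside the family, the rows whose pattern over the 6 libraries was most like the mean pattern of the ribosomal proteins were pfn1 (Pearson r = 0.999), aqp3a at MSTRG.24521 (0.992), CCDC88A (0.989), plppr5a at MSTRG.18224 (0.989) and rnaseka (0.984), picked as the highest r of all rows and given as a description over 6 libraries that share depth and scaling. Levels were low in all but pfn1. The aqp3a row averaged 1.49 FPKM, near the filter of 1 FPKM, and CCDC88A, plppr5a and rnaseka averaged 5.21, 6.71 and 13.2 FPKM. pfn1, profilin, which binds actin monomers, had 920, 661 and 1149 FPKM in hypoxia against 556, 641 and 682 FPKM in control (log2 change 0.51 ± 0.22, adjusted p = 0.210). The order of its libraries was that of the ribosomal proteins, with hypoxia 3 highest, hypoxia 2 lowest of its group and control 1 lowest of all.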

How the data were processed

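One deposited table of FPKM per gene row was used, with 1 column per library; 0 other value columns were left unmatched. The authors' FPKM come from HISAT and StringTie, as the submitters' processing notes list; tool versions, build and annotation are not given there, so no positions or sequences are reported. Assembled loci can merge or split genes, and 1 ribosomal protein row carries 2 names (rps9;zgc:101640). Gene names came from the table. FPKM are not counts, and depth is unknown. Steps of the values under 0.15 FPKM gave depths relative to hypoxia 1 of 1.06 in hypoxia 2 and 1.08 in hypoxia 3. For control 1 to 3 they gave 1.21, 1.09 and 1.2, so each control library was estimated deeper than each hypoxia library. A part of depth in the differences of low rows was not tested. Precision is given only as the spread over 3 libraries.

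Values were taken to log2(FPKM + 1), which understates changes of low rows. Rows averaging 1 FPKM or more (25111) were tested with limma 3.58.1 (lmFit, eBayes with trend) in R 4.3.3, two-sided, hypoxia against control without covariates. Every adjusted p is a limma p adjusted by Benjamini-Hochberg over all of them, with a threshold of 0.05, and ± beside a log2 change is its SE. The script was tested on simulated data. The members and lists were chosen with earlier results of these data known. Named are the 10 members with the smallest p, the 10 most abundant, the 5 highest and 5 lowest changes, stalk proteins, rpsa, rps27a, copies and variants, called rows of each partner list, and 5 rows of like pattern. Named after their values were seen were rps6, rpl11, rsl24d1, eif4g2b, the uncalled mTORC1 rows and the further rows of mrpl2, srp72 and sec61a1. Not all genes named by the rule are given. Hemoglobin rows (12) were identified from gene ontology terms and names in the table. Of the 18 other settings, 16 were planned and 2 (hemoglobin rows left out; scaling to the ribosomal protein sum) were added after seeing the data.

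The labels do not say whether same-numbered libraries belong together. Over all tested rows their deviations from the group means correlated at -0.06, -0.04 and -0.12. Over the ribosomal protein rows they correlated at -0.68, 0.43 and -0.48. Such correlations cannot exclude a shared tank or day.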

Additional observations from a re-analysis of the deposited data

How the results depend on the processing

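The count of ribosomal protein rows called lower was 0 under all 18 alternatives. The count called higher was 0 in 15 of them, 1 with a minimum mean of 5 FPKM (rpl38, adjusted p = 0.0445), 2 with hemoglobin left out (rpl38, adjusted p = 0.0445, and rps10, adjusted p = 0.0441) and 3 after quantile normalization (rpl23, rpl10 and rpl22 at MSTRG.21472). The median log2 change, 0.18, was 0.025 after quantile normalization and -0.012 after scaling to the ribosomal protein sum, and between 0.08 and 0.21 under the other alternatives that kept all libraries. The ratio of summed FPKM, 1.15, was 0.958 after quantile normalization. With each library left out in turn, 0 to 0 rows were called higher and 0 to 0 lower, the median ran from 0.12 to 0.26 and the ratio from 1.099 to 1.21. In the whole table those fits called 106 to 818 rows higher and 154 to 809 lower, against 870 and 829 with all libraries. Partner list rows called higher, 1 in the fit as reported, were 0 without a filter, on the TPM scale, under median-of-ratios scaling, scaled to the sum without ribosomal proteins, under the replicate block, with hemoglobin left out and scaled to the ribosomal protein sum, 2 with a minimum mean of 5 FPKM, 4 after quantile normalization, and 0 to 1 with a library left out. Those called lower, 10 as reported, were 6 without a filter, 0 under the replicate block, 17 scaled to the ribosomal protein sum, and 1 to 8 with a library left out (1 without hypoxia 1, hypoxia 3 or control 2, and 3 without control 3). Over all tested rows, those called lower were 829 as reported, 539 of 40538 without a filter and 1226 scaled to the ribosomal protein sum. Those called higher were 870 as reported, 519 without a filter and 779 of 11390 with a minimum mean of 5 FPKM. They were 859 after quantile normalization and 502 to 866 under the other scalings. With a library left out, the counts over the whole table are those given above. The causes were not tested. The replicate block left 0 ribosomal protein rows called in either direction, as without it. In the whole table it left 2 rows called, against 1699 without it. Whether the library numbers pair the samples is not stated, and the lost calls say nothing of the size of a change. With 3 libraries a group and depth unknown, the unadjusted 95% intervals reached 0.29 to each side at the median on the FPKM scale and did not cover the choice of scaling. The size of change that the adjusted test could call was not estimated.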
